A study of Mus musculus with 4 samples.

Results

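The subunits of the phagocyte NADPH oxidase examined here were Cybb, Cyba, Ncf1, Ncf4 and Rac2, 5 of the 31053 genes in the count matrices, and they were chosen by gene symbol. Their transcripts were counted in bone marrow mononuclear cells of 2 TLR9-/- and 2 WT mice by single-cell RNA sequencing from the 5′ end, with 1 library per mouse. All mice were C57BL/6, the strain of both genotypes. TLR9-/- mice carried a disrupted Tlr9 allele in every cell, and the genotypes were bred in separate cages, so that genotype and cage cannot be told apart. The age and sex of these mice are not given in the sources used here. The study had paired 1 mouse of each genotype in each of its experiments, but nothing in the labels ties library 1 or 2 to either experiment. In the text, values of the 4 libraries stand in the order TLR9-/- 1, TLR9-/- 2, WT 1 and WT 2.

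Toll-like receptor 9, encoded by Tlr9, senses unmethylated DNA in endosomes, and its transcript served as a check of the labels. Tlr9 had 41, 48, 120 and 97 UMIs (unique molecular identifiers, each marking a captured molecule), which was 0.817, 0.750, 3.84 and 2.34 CPM, where CPM is the UMIs of a gene over all UMIs of the library or class, times 1000000. It was lower in both TLR9-/- libraries than in either WT library. After filtering, 39167 of 40545 cells remained, with 8895 to 10781 cells and 31210188 to 63958243 UMIs per library. The median number of UMIs per cell ranged from 1759 to 3618 and was higher in both TLR9-/- libraries. Any pair of libraries shared between 118 and 203 cell barcodes. Cells marked as doublets, between 309 and 633 per library, were kept.

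The phagocyte NADPH oxidase transfers electrons from cytosolic NADPH across a membrane to oxygen and so makes superoxide, which neutrophils, monocytes and macrophages use against ingested microbes. Cybb encodes gp91phox, its catalytic subunit, and Cyba encodes p22phox, which holds gp91phox in the membrane. Ncf1 (p47phox) and Ncf4 (p40phox) encode cytosolic subunits that move to the membrane on activation, and Rac2 encodes the small GTPase that completes the complex in blood cells. Loss of the oxidase causes chronic granulomatous disease.

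In the GENCODE annotation of mm10 (GRCm38), Cybb (ENSMUSG00000015340) lies on the minus strand of chromosome X from 9435252 to 9487771. Cyba (ENSMUSG00000006519) lies on the minus strand of chromosome 8 from 122424776 to 122432930. Ncf1 (ENSMUSG00000015950) lies on the minus strand of chromosome 5 from 134220053 to 134229625. Ncf4 (ENSMUSG00000071715) and Rac2 (ENSMUSG00000033220) both lie on chromosome 15, Ncf4 on the plus strand from 78244801 to 78262580 and Rac2 on the minus strand from 78559167 to 78572783. All 5 genes are protein coding, and they gave 25846 (Ncf1) to 204316 (Cyba) UMIs over the 4 libraries.

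The promoters of the subunits are shown because all 5 transcripts rose into immature neutrophils, before 4 of them fell into mature neutrophils. The RefSeq table held the 250 bases before the transcription start for 3 of the 5 members, from GRCm38.p6, each at the minus strand. They are printed 5′ to 3′, with capitals marking matches to the searched letters on either strand. The entries for Ncf4 and Rac2 were missing.
Cybb, chrX:9469325-9469574: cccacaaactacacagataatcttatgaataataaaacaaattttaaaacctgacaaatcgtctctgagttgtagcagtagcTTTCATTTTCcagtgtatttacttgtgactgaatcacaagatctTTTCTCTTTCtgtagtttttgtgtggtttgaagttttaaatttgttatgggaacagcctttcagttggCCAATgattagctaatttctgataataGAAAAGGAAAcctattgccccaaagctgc
Cyba, chr8:122432941-122433190: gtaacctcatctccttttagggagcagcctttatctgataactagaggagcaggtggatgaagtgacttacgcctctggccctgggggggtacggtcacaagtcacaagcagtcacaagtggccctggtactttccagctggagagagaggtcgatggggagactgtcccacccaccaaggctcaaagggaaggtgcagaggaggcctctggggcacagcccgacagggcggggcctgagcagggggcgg
Ncf1, chr5:134229626-134229875: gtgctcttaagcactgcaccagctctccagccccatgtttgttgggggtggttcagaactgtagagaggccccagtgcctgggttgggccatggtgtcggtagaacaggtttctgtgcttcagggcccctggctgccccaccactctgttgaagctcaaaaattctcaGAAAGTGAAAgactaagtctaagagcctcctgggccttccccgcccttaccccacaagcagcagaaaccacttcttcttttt

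The letters searched were GAGGAA for PU.1 (the product of Spi1), TTGCNNAA for C/EBP factors, CCAAT for the CCAAT box and GAAA followed after any 2 bases by GAAA for interferon regulatory factors (IRF), on both strands. Among 32851 RefSeq promoters of the same length, 23.3% held GAGGAA, 9.56% held TTGCNNAA, 33.8% held CCAAT and 2.98% held the IRF letters. The Cybb promoter held CCAAT at 56 to 52 bases before the start and the IRF letters in 3 places, with the match nearest to the start at 29 to 20 bases. The Ncf1 promoter held the IRF letters at 82 to 73 bases before the start, and the Cyba promoter held none of the 4. Guanine and cytosine made up 34.0% of the bases of the Cybb promoter, 60% of those of Cyba and 54.4% of those of Ncf1. These matches describe letters in the window and are no measure of binding. The RefSeq start of Cybb lies inside the longer gene span of the annotation used for counting.

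Cells were placed in 20 classes by marker genes, none of which was a subunit, and the thresholds were set after the distributions in the files had been seen. Neutrophil stages were granulocyte-committed progenitors with Elane, Prtn3, Mpo and Ctsg transcripts, immature neutrophils with Camp, Ngp, Ltf and Lcn2, intermediate neutrophils with these and Retnlg, and mature neutrophils with Retnlg but few granule transcripts. Immature, intermediate and mature neutrophils numbered 432 to 951, 142 to 517 and 144 to 592 cells per library, and classical monocytes 520 to 1224. Between 1027 and 1744 cells per library met no gate, and between 393 and 672 met gates of more than 1 lineage. Of the cells around the 3 gate thresholds between neighbouring stages, 6.01% (immature or intermediate neutrophils), 11.8% (intermediate or mature) and 21.0% (granulocyte- or monocyte-committed progenitors) lay within 1.5-fold of the threshold. Of 108 pairs of a class and a fixed marker, 107 had a higher mean in the class than the mean over the other classes, and 81 were higher than in every other class. Most of these markers were also genes of the gates, so that these counts were largely fixed in advance and are no separate check. None of the 8 markers of monocyte-committed progenitors was highest there, and neither Ltf nor Lcn2 was highest in immature neutrophils, where intermediate neutrophils had more.

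The macrophage gate (C1qa, C1qb, C1qc) held 12 to 29 cells per library. These cells had 1426 CPM of C1qa and 615 of Vcam1, but also 1437 of Ly6c2 and 590 of Ccr2, genes of classical monocytes. Cells in the gate for nonclassical monocytes numbered 5 to 14 per library and still had 1398 CPM of Ly6c2, which such monocytes are known to lose. Their label is thus not borne out by Ly6c2, and values from them are given without a test. In 17 of the 20 classes every library had at least 10 cells.

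Cybb, the catalytic subunit, was lowest at the start of the neutrophil path and highest at its intermediate stage. Levels are CPM within the class and are compared between classes for 1 gene at a time. In stem-like progenitors Cybb had 3.56, 7.61, 9.87 and 4.44 CPM, from 3 to 10 UMIs per library. Granulocyte-committed progenitors had 42.2, 55.5, 90.9 and 90.3 CPM. Immature neutrophils had 901, 1030, 924 and 954 CPM. The lowest immature library was thus far above the highest progenitor library. Intermediate neutrophils had 1103, 1034, 988 and 997 CPM, a range that overlapped that of immature neutrophils. Mature neutrophils had 130, 194, 287 and 114 CPM. Every library fell between these last stages, and the range of mature neutrophils overlapped that of mature B cells.

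On the monocyte path, Cybb had 129, 139, 199 and 163 CPM in monocyte-committed progenitors. Classical monocytes, the blood-borne precursors of tissue macrophages, had 555, 691, 688 and 689 CPM. Cells of the macrophage gate had 842, 895, 591 and 1212 CPM, overlapping classical monocytes. In all 4 libraries immature neutrophils had more Cybb than classical monocytes, by 1.34- to 1.62-fold. Plasmacytoid dendritic cells, which make type I interferon, had 504, 563, 628 and 603 CPM, and conventional dendritic cells 477 ± 62.3 (SD, n = 4 libraries). In B-cell precursors the values were 15.9, 20.7, 34.6 and 24.5, and in mature B cells 168, 179, 193 and 158 CPM. Erythroid cells, which should lack the oxidase, had 9.06 ± 2.72 CPM and natural killer cells 4.93 ± 6.75, the latter from 3 UMIs in all with 2 of the 4 libraries at 0. In the order of class means, ranges of neighbours did not overlap between conventional dendritic cells and mature neutrophils, between monocyte-committed progenitors and plasma cells, and between granulocyte-committed progenitors and B-cell precursors. All other neighbours overlapped.

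Cyba, whose product anchors gp91phox, had a highest class mean 33.1 times the lowest. It had 246, 267, 339 and 341 CPM in stem-like progenitors and 629, 785, 832 and 1032 in granulocyte-committed progenitors. Immature neutrophils had 2474, 2555, 2592 and 2537 CPM, intermediate neutrophils 2468 ± 59.7 and mature neutrophils 1979, 2061, 1869 and 1971 (SD, n = 4). All mature libraries thus lay below all intermediate libraries, but Cyba kept most of its level where Cybb did not. Classical monocytes had 1871, 1991, 2100 and 2123 CPM, overlapping mature neutrophils. Cyba was also present in cells with little Cybb, with 1258 ± 166 CPM in natural killer cells, 1002 ± 74.1 in basophils and 828 ± 76.1 in T cells. Erythroid cells had 76.6 ± 15.5 CPM.

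Ncf1, the organiser of the cytosolic subunits, was set apart from Cybb by its high level in neutrophils and low level in monocytes. It had 26.7, 41.1, 29.6 and 54.8 CPM in stem-like progenitors and 118 ± 19.8 in granulocyte-committed progenitors (SD, n = 4). Immature neutrophils had 396, 451, 381 and 419 CPM, and intermediate neutrophils 675, 789, 701 and 761. These ranges did not overlap, and no other class reached the level of intermediate neutrophils. Mature neutrophils had 376, 482, 541 and 579 CPM, overlapping immature neutrophils. Classical monocytes had 127, 125, 104 and 131 CPM, so that intermediate neutrophils had 5.30 to 6.76 times as much in the same library. Mature B cells had 103 ± 10.98 and B-cell precursors 12.04 ± 2.0 CPM. Basophils had 130, 170, 120 and 238 CPM, above classical monocytes in each of the 4 libraries, whereas their Cybb was 11.99 ± 10.1.

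Ncf4 also had its highest class mean in intermediate neutrophils, but did not stand apart there as Ncf1 did. It had 374, 440, 361 and 316 CPM in immature neutrophils, 383, 432, 389 and 355 in intermediate neutrophils and 234, 340, 287 and 254 in mature neutrophils. Immature and intermediate neutrophils overlapped, and so did immature and mature neutrophils. Classical monocytes had 230, 253, 204 and 189 CPM and mature B cells 169, 199, 142 and 153. Plasmacytoid dendritic cells, which were high for Cybb, had only 65.7, 62.2, 33.4 and 41.5 CPM of Ncf4. Erythroid cells had 6.36 ± 2.09 CPM (SD, n = 4).

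Rac2, the GTPase, was the least restricted member, with a highest class mean 20.1 times the lowest. Mature neutrophils had 1731, 2039, 1172 and 1375 CPM and intermediate neutrophils 1625, 1858, 1299 and 1129. T cells had 1364, 1384, 1163 and 907 CPM, natural killer cells 1205 ± 177 and plasmacytoid dendritic cells 1222 ± 193 (SD, n = 4), all overlapping neutrophils. Classical monocytes had 570, 569, 559 and 457 CPM, below mature B cells (1093, 948, 953 and 722) in every library. In the order of class means, neighbours overlapped except between monocyte-committed and stem-like progenitors and between the macrophage gate and plasma cells. Plasma cells (101 ± 20.5) and erythroid cells (78.5 ± 9.32) had the least Rac2.

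**Figure D1:**
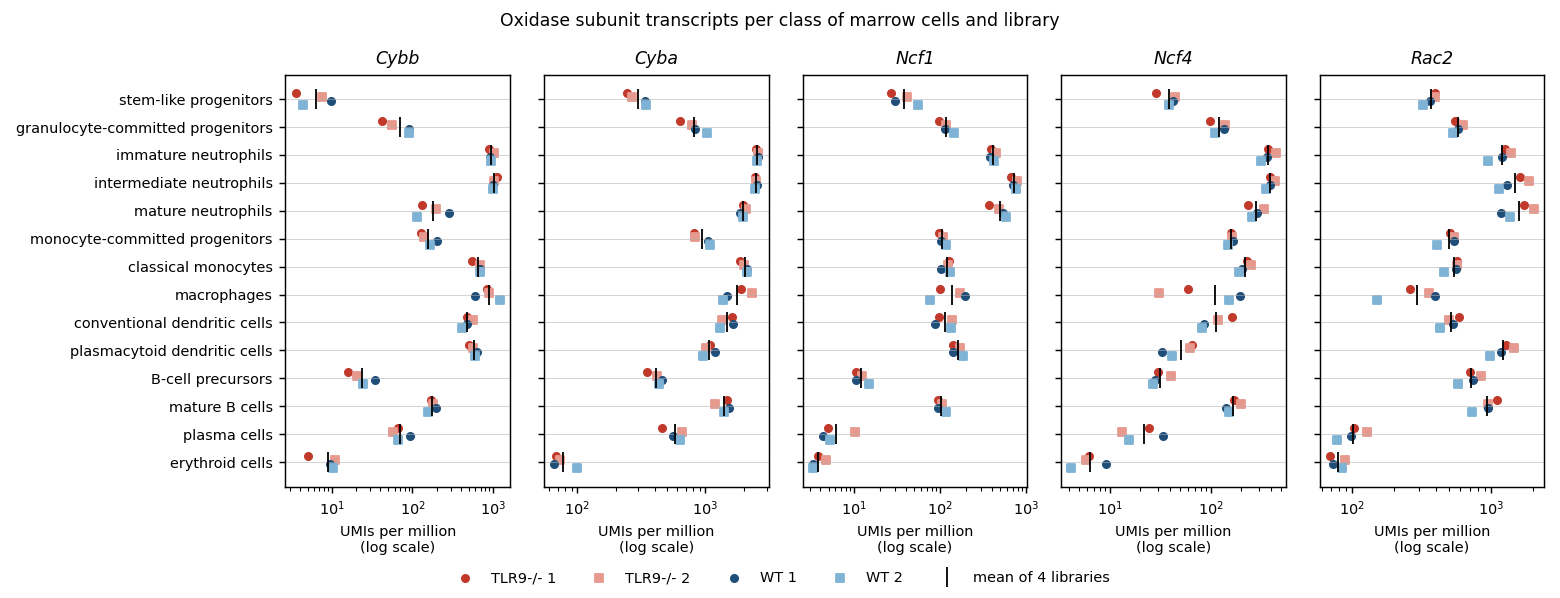
CPM (log scale) of the 5 subunits in 14 classes of marrow cells; each point is 1 library, red shades for TLR9-/- and blue shades for WT, and the black bar is the mean of the 4 libraries. Cybb spanned from 6.37 CPM in stem-like progenitors to 1030 in intermediate neutrophils. Rac2 had means of 717 CPM in B-cell precursors and 929 in mature B cells, but 101 in plasma cells.

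**Figure D2:**
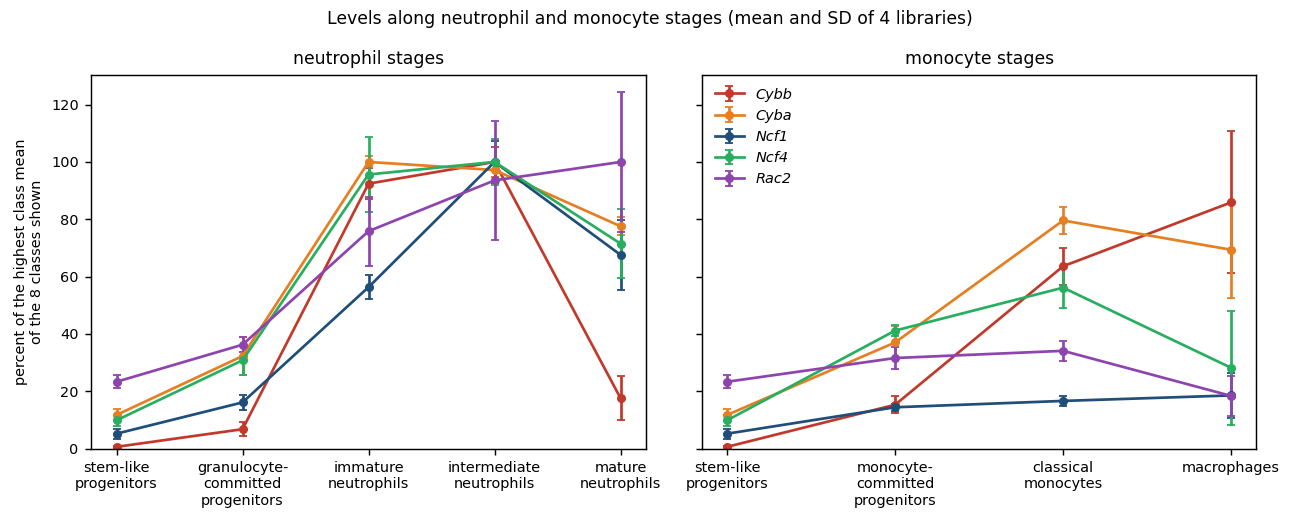
Levels of the 5 subunits along the neutrophil stages (left) and the monocyte stages (right), as percent of the highest class mean of the 8 classes shown; points are means and bars the SD of 4 libraries. Cybb dropped in mature neutrophils. Rac2 had its highest mean CPM there, but its range overlapped that of intermediate neutrophils.

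The balance between subunits shifted with the class. Molecules of Ncf1 per molecule of Cybb rose from 0.432 (0.412 to 0.440 over the libraries) in immature neutrophils to 0.712 (0.612 to 0.764) in intermediate and 3.09 (1.89 to 5.09) in mature neutrophils, whereas classical monocytes had 0.188 (0.151 to 0.229). The ratio of Cyba to Cybb UMIs was 2.67 (2.48 to 2.81) in immature neutrophils and 12.4 (6.51 to 17.3) in mature neutrophils. The ratio of Ncf1 to Ncf4 was 1.88 (1.76 to 2.14) in intermediate neutrophils, 0.562 (0.493 to 0.692) in classical monocytes and 3.42 (2.16 to 4.51) in plasmacytoid dendritic cells. Within each of these comparisons the ranges of the named classes did not overlap. Against Rac1, its widely expressed relative, Rac2 had a ratio of 6.15 (4.56 to 7.07) in intermediate neutrophils and 0.984 (0.888 to 1.09) in classical monocytes. These ratios compare 1 pair of genes between classes and were not tested.

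The 3 neutrophil stages held 43.2% ± 12.9 of all Cybb UMIs (29.4% to 58.1% over the libraries) and 47.6% ± 10.9 of all Ncf1 UMIs (SD, n = 4 libraries), although they held only 8.27% to 20.4% of the UMIs of all genes. For Rac2 their share was 26.1%. Monocytes and macrophages held 22.8% ± 6.76 of the Cybb UMIs and 9.72% ± 4.06 of the Ncf1 UMIs. Their share of the UMIs of all genes was 6.86% to 14.0%. All these are shares within the sequenced mononuclear cells, not within whole marrow.

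Neighbouring stages were compared by summing the UMIs of a class per library and testing with edgeR's quasi-likelihood test, with the library as a block since both classes came from the same mouse. Values are log2 changes after TMM scaling (edgeR's correction for differences in RNA composition), and adjusted p values are two-sided with Benjamini-Hochberg adjustment over all genes tested. Without TMM scaling, an alternative chosen after seeing the data, the median change of all genes was −0.65 from granulocyte-committed progenitors to immature neutrophils, −0.40 to intermediate neutrophils and 0.26 to mature neutrophils, so that log2 changes below are relative to most other genes.

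From stem-like to granulocyte-committed progenitors all 5 members rose, where 46.7% of 8729 tested genes changed (23.3% rose and 23.4% fell). Cybb rose most, by 3.57 on the log2 scale (standard error 0.22, edgeR adjusted p = 6.2e-12), and Rac2 least, by 0.83 (standard error 0.061, adjusted p = 1.4e-10). The rise of Cybb started from 3 to 10 UMIs per library. Its level there (mean 6.37 CPM) overlapped that of erythroid cells (mean 9.06), so that the size of this rise is uncertain. Cyba rose by 1.66, Ncf1 by 1.81 and Ncf4 by 1.85, each in 4 of 4 libraries. From there to immature neutrophils all 5 rose again, where 72.1% of 10036 genes changed (37.6% rose and 34.5% fell). The log2 change was 4.58 for Cybb (standard error 0.16, edgeR adjusted p = 1.8e-13), 2.37 for Cyba, 2.54 for Ncf1, 2.36 for Ncf4 and 1.77 for Rac2. Without TMM scaling the change of Cybb was 3.86 and that of Rac2 1.05, and all 5 calls were kept.

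From immature to intermediate neutrophils the test called all 5 members higher, where 59.8% of 7199 genes changed (28.9% rose and 30.8% fell). The rise of Ncf1 was 1.13 (standard error 0.11, edgeR adjusted p = 2.3e-08) and that of Rac2 0.59 (standard error 0.12, adjusted p = 1.7e-04). The calls for Cybb (0.41), Ncf4 (0.37) and Cyba (0.26, adjusted p = 0.0482) depended on the scaling. Without TMM they were 0.11, 0.064 and −0.047, and none of the 3 passed the threshold, while Ncf1 (0.82) and Rac2 (0.29) still did.

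From intermediate to mature neutrophils 4 of the 5 fell, where 41.3% of 3643 tested genes changed (21.6% rose and 19.7% fell). Cybb fell by 2.93 on the log2 scale (standard error 0.17, edgeR adjusted p = 2.0e-12), Ncf1 by 0.87, Ncf4 by 0.76 and Cyba by 0.61, each in 4 of 4 libraries. The fall of Cybb was −2.64 without TMM scaling. Rac2 had a log2 change of −0.18 (95% interval −0.42 to 0.057, edgeR adjusted p = 0.221) with TMM scaling and 0.11 without it, so that no direction is given.

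From monocyte-committed progenitors to classical monocytes 4 of 5 members rose, where 61.3% of 9899 genes changed (30.6% rose and 30.8% fell). The rise was 2.06 for Cybb (standard error 0.065, edgeR adjusted p = 1.9e-16), 1.08 for Cyba and 0.44 for Ncf4. The call for Ncf1 was small (0.20, standard error 0.064, edgeR adjusted p = 0.0105, higher in 3 of 4 libraries) and was lost in DESeq2 (adjusted p = 0.108) and without the TLR9-/- library numbered 1 (adjusted p = 0.201). Rac2 had a log2 change of 0.074 (95% interval −0.020 to 0.17, edgeR adjusted p = 0.161), and of 0.11 without TMM scaling, where it passed the threshold (edgeR adjusted p = 0.0219).

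Between classical monocytes and the macrophage gate, 11.2% of 7647 genes changed (2.25% were higher and 8.92% lower) and 2 of the 5 members were called. Ncf4 was lower by 1.59 on the log2 scale and Rac2 by 1.26 (edgeR adjusted p = 3.7e-04 and 3.8e-04), both lower in 4 of 4 libraries. The values rest on 2 to 12 UMIs of Ncf4 and 2 to 24 UMIs of Rac2 per library of that gate. The call for Ncf4 was lost without the TLR9-/- library numbered 2, that for Rac2 without the WT library numbered 1, and both in DESeq2 (adjusted p = 0.132 and 0.0576). With TMM the median change of all genes was −0.49 here and without it −0.030. Cybb changed from −0.14 to 0.36 and Ncf1 from −0.11 to 0.36 between these scalings, none past the threshold.

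From B-cell precursors to mature B cells all 5 members rose, where 57.3% of 9493 genes changed (28.1% rose and 29.2% fell). The rise was 3.20 for Ncf1 (standard error 0.11, edgeR adjusted p = 5.9e-12), 2.996 for Cybb (standard error 0.14, adjusted p = 9.9e-11), 2.53 for Ncf4, 1.87 for Cyba and 0.49 for Rac2 (adjusted p = 1.5e-04). The 5 neutrophil granule markers summed here and below were Camp, Ngp, Ltf, Lcn2 and Retnlg. Their sums were 72.1 to 614 CPM over the libraries in mature B cells and 140 to 350 in B-cell precursors, which overlapped. The 5 monocyte markers summed to 217, 61.1, 195 and 79.5 CPM in mature B cells and to 101, 77.2, 131 and 60.5 in B-cell precursors. The part of these markers in the rise was not tested.

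**Figure D3:**
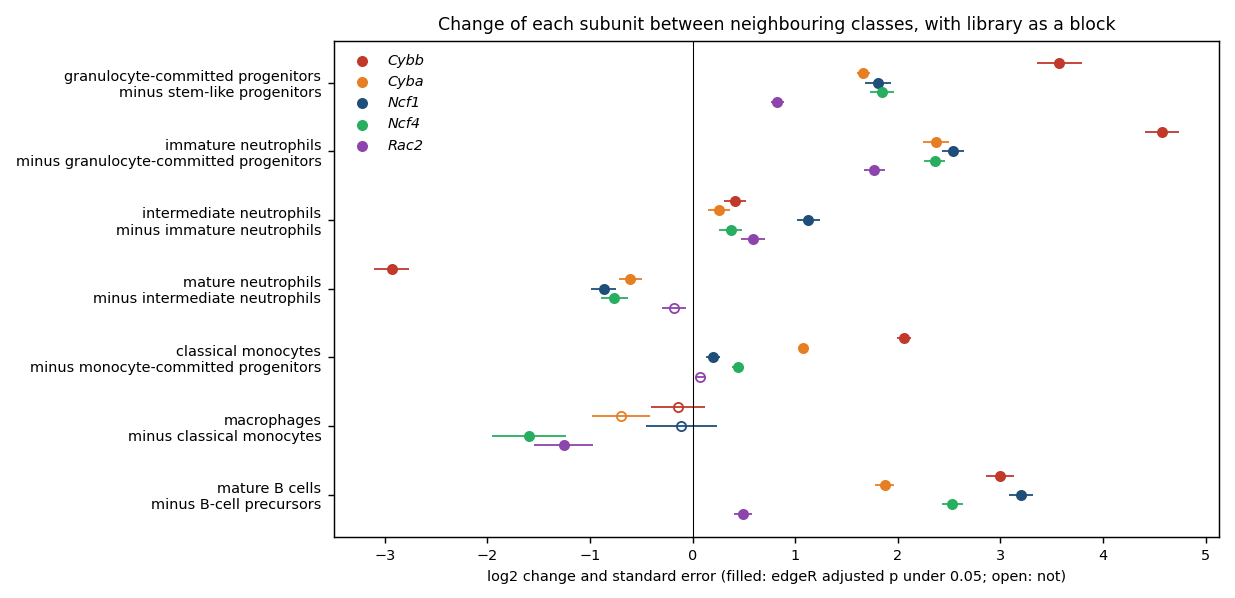
Log2 change of each subunit between neighbouring classes with its standard error (edgeR, library as a block, 4 libraries per class); filled points had an adjusted p under 0.05. Cybb had the largest rise into immature neutrophils (4.58) and the largest fall into mature neutrophils (−2.93) of the 5.

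In single cells the same order was seen when every cell was thinned to 1000 UMIs, which left shallower cells out (497 TLR9-/- and 334 WT mature neutrophils, 36 and 50 immature neutrophils, and 38 classical monocytes in all). At least 1 UMI of Cybb was found in 65.1% ± 3.86 of immature neutrophils, 51.4% ± 4.15 of classical monocytes, 15.7% ± 4.91 of mature neutrophils and 14.3% ± 1.54 of mature B cells (SD, n = 4 libraries). Erythroid cells had it in 1.2%, with a median depth before thinning of 2998 UMIs per cell against 5157 in immature neutrophils, 4704 in classical monocytes, 1006 in mature neutrophils and 1396 in mature B cells. Without thinning the Cybb shares were 96.3%, 90.7%, 16.6%, 21.0% and, in erythroid cells, 3.4%. Rac2 was found in 83.5%, 84.2%, 75.0% and 76.4% of thinned mature neutrophils, and in 5.7% of erythroid cells. Immature neutrophils had UMIs of at least 3 of the 5 members in 66.0% of thinned cells, classical monocytes in 32.8% and erythroid cells in 0.0619%.

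Other genes tied to the same oxidase did not follow a single course. Of 4 such genes (Rac1, Rap1a, Hvcn1 and BC017643), 3 rose into granulocyte-committed progenitors and 4 into immature neutrophils, with medians of 0.53 and 0.80 against −0.018 and 0.041 over all genes tested. Of all genes nearly equal shares rose and fell into granulocyte-committed progenitors, and slightly more rose than fell into immature neutrophils. The shares of all genes at each step are printed in the next paragraph. Rac1 had 239 ± 19.7 CPM in immature neutrophils, 240.5 ± 28.5 in intermediate and 421 ± 50.1 in mature neutrophils (SD, n = 4). It was called higher at both steps, by 0.32 and 0.53 (edgeR adjusted p = 0.0250 and 0.0012), although its CPM ranges in immature and intermediate neutrophils overlapped. Cybb fell at the later step. Hvcn1, the proton channel that balances charge during the burst, fell by 0.86 and 2.92 at these steps (adjusted p = 1.4e-04 and 6.3e-07). It was highest in mature B cells, with 252 ± 43.7 CPM, and rose by 1.80 from B-cell precursors. BC017643, which encodes a chaperone of the membrane subunits, rose by 0.62 into intermediate neutrophils, and Rap1a fell by 0.47 into mature neutrophils. Into classical monocytes 3 of the 4 rose, Rac1 by 0.62 and BC017643 by 0.61, and Hvcn1 fell by 0.91. Of all genes nearly equal shares rose and fell there. In the macrophage gate 1 of the 4 was lower, Rac1 by 1.03. There 8.92% of all genes were lower, and the median change of all genes was −0.49 with TMM scaling. In mature B cells 2 rose and 0 fell (28.1% and 29.2% of all genes).

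Of 16 regulators of oxidase assembly, 5 rose and 4 fell into granulocyte-committed progenitors, 13 rose and 0 fell into immature neutrophils, 10 rose and 0 fell into intermediate neutrophils, and 6 rose and 4 fell into mature neutrophils. Of all genes 23.3% rose and 23.4% fell at the step to granulocyte-committed progenitors, 37.6% and 34.5% at the next, 28.9% and 30.8% at the one after and 21.6% and 19.7% at the last. At the step to immature neutrophils their median log2 change was 0.92 against 0.041 over all genes. The kinase gene Prkcd rose by 1.26 and 1.66 at the steps to immature and intermediate neutrophils, and Prex1, whose product activates Rac proteins, by 1.37 and 2.02. Arhgdib, whose product holds Rac proteins inactive, rose by 1.56 into immature and fell by 0.98 into mature neutrophils. S100a8 and S100a9, which belong to this list and are also neutrophil markers, rose by 4.84 and 5.49 into immature neutrophils. In classical monocytes 8 rose and 3 fell (30.6% and 30.8% of all genes). In the macrophage gate 0 rose and 3 fell (2.25% and 8.92%), where the median change of all genes was −0.49 with TMM scaling. In mature B cells 7 rose and 1 fell (28.1% and 29.2%). Not all 16 regulators had enough counts to be tested at every step.

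Of 16 genes for the removal of reactive oxygen, 7 rose and 4 fell into granulocyte-committed progenitors. At that step nearly equal shares of all genes rose and fell, as given above for the regulators. Into immature neutrophils 7 rose and 8 fell, near the 37.6% and 34.5% of all genes. Gsr, the glutathione reductase, rose by 3.48 and 0.96 and the peroxiredoxin gene Prdx5 by 2.55 and 2.36 at these steps, while Prdx1 fell by 1.53 and Sod2 by 0.87 into immature neutrophils. Into intermediate neutrophils 4 rose and 6 fell (28.9% and 30.8% of all genes). Into mature neutrophils 3 rose and 2 fell (21.6% and 19.7%). Into classical monocytes 6 rose and 6 fell, where 30.6% and 30.8% of all genes did. Among them Hmox1, the heme oxygenase gene, rose by 2.45. In the macrophage gate 1 rose (Hmox1, by 2.46) and 8 fell, where 2.25% of all genes were higher and 8.92% lower. The median change of all genes in that gate was −0.49 with TMM scaling and −0.030 without it, so that the scaling favoured falls. In mature B cells 2 rose and 6 fell (28.1% and 29.2% of all genes). Not all 16 genes had enough counts to be tested at every step. None of 9 genes of other NADPH oxidases (the Nox and Duox families and their partners) had enough counts to be tested in any class.

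Of 9 myeloid transcription factors, 6 rose and 2 fell into granulocyte-committed progenitors (23.3% and 23.4% of all genes). Again 6 rose and 2 fell into immature neutrophils (37.6% and 34.5%). Into intermediate neutrophils 4 rose and 4 fell (28.9% and 30.8%). Into mature neutrophils 5 rose and 1 fell among those tested (21.6% and 19.7%). Cebpe, needed for granule formation in neutrophils, rose by 5.06 and 2.26 and then fell by 0.71 and 3.13 (edgeR adjusted p = 2.7e-11 for the last). Its level was 465 ± 45.3 CPM in immature and 30.2 ± 11.4 in mature neutrophils (SD, n = 4). Spi1, which encodes PU.1, rose at all 4 neutrophil steps, by 1.06, 1.05, 0.76 and 0.38, and reached 734 ± 146 CPM in mature neutrophils. Irf8, a factor of monocytes and dendritic cells, was highest in plasmacytoid dendritic cells, with 2782 ± 441 CPM, fell by 0.36 into classical monocytes and rose by 1.25 into mature B cells. Monocyte-committed progenitors were gated partly on high Irf8, and stem-like and granulocyte-committed progenitors on low levels of a marker set that includes it. Changes of Irf8 from or into these progenitors are thus partly set by the gates. Into classical monocytes 4 of the factors rose and 4 fell (30.6% and 30.8% of all genes). In the macrophage gate 0 rose and 2 fell (2.25% and 8.92%), where the median change of all genes was −0.49 with TMM scaling. In mature B cells 4 rose and 1 fell (28.1% and 29.2%). Not all 9 factors had enough counts to be tested at every step.

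Genes with the most similar pattern were sought by Pearson's r of log2(CPM + 1) over the means of 20 classes, which share libraries and depths, among 2468 genes. For Cybb they included Pirb (r = 0.89) and Gm36161 (0.87). For Cyba they were Tmsb4x (0.89), Sorl1 (0.87) and Sla (0.87). For Ncf1 they included Plaur (0.94), the urokinase receptor, and Nfam1 (0.92). For Ncf4 they were Capg (0.88), Rhog (0.87) and Arhgdib (0.85), and for Rac2 Rcsd1 (0.93), Arhgap4 (0.92) and Limd2 (0.90). Among the members themselves r ranged from 0.26 for Cybb and Rac2 to 0.81 for Ncf1 and Ncf4.

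The comparison of genotypes asked whether loss of Tlr9 went with other levels of the subunits. In the sum of all cells, Cybb had 248, 341, 254 and 316 CPM, Cyba 1027, 1163, 995 and 1143, and Ncf1 116, 168, 90.5 and 157. The genotypes overlapped for these 3. Ncf4 had 134, 177, 104 and 123 and Rac2 690, 775, 666 and 578 CPM, both higher in each TLR9-/- library than in either WT library. In such sums a change in the number of cells of a type and in the RNA of each cell cannot be told apart. None of the 5 passed the threshold, where 0.268% of 14194 genes did. The log2 differences (TLR9-/- minus WT) were 0.044 for Cybb, 0.031 for Cyba, 0.19 for Ncf1, 0.46 for Ncf4 (95% interval −0.025 to 0.94, edgeR adjusted p = 0.308) and 0.23 for Rac2. When every library was given the same mixture of classes, they were −0.087, −0.14, 0.012, 0.20 and 0.24, with no test.

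Within classes, 0 of 47 tests of a member passed the threshold in edgeR, 7 had an unadjusted p under 0.05 (6.85% of the tests of all genes did over the same 10 classes), and DESeq2 called 1 (0.386% of all genes). The share of all genes called was 0.264% in stem-like and 0.264% in granulocyte-committed progenitors, 0.348% in immature, 0.231% in intermediate and 0.205% in mature neutrophils, 0.408% in monocyte-committed progenitors, 0.311% in classical monocytes, 0% in the macrophage gate, 0.594% in B-cell precursors and 0.111% in mature B cells. Cybb in stem-like progenitors and Ncf1 and Ncf4 in the macrophage gate had too few UMIs to be tested. Groups of this size allow no exact permutation p under 0.33.

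The lowest p belonged to Cybb in granulocyte-committed progenitors, with the levels given above: both TLR9-/- libraries (42.2 and 55.5 CPM) were below both WT libraries (90.9 and 90.3). The log2 difference was −0.93 (standard error 0.17, 95% interval −1.32 to −0.53), with an edgeR adjusted p of 0.0969 and a DESeq2 adjusted p of 0.0184, where 0.517% of all genes passed. Over 12 alternatives its adjusted p ranged from 1.5e-09 to 0.445 and passed in 3: DESeq2, no filter on low counts, and the library number as a block. With that block Cyba in the same cells and Cybb in B-cell precursors passed too, where 6.32% and 4.66% of all genes did, but the labels do not say what the number marks. Some other transcripts moved with it. The primary granule markers that define the class did not, with 46707 and 59303 CPM in TLR9-/- and 48717 and 55740 in WT libraries. The 5 monocyte markers summed to 2698 and 2919 CPM at the ends of the TLR9-/- range and to 3373 and 3978 at those of the WT range, the 5 neutrophil granule markers to 870 and 981 against 1151 and 1433, the 8 erythroid markers to 348 and 548 against 602 and 2817, and the 10 B-cell markers to 90.3 and 154 against 198 and 240, with 0 of these markers at 0. Their part in the difference was not tested. Cyba in the same cells had a log2 difference of −0.44 (adjusted p = 0.469 in edgeR), also without overlap. In stem-like progenitors Cyba had −0.44 as well (95% interval −0.85 to −0.037, edgeR adjusted p = 0.669), again without overlap. In monocyte-committed progenitors Cybb had −0.49 and Cyba −0.43 (edgeR adjusted p = 0.488 and 0.530), and in B-cell precursors Cybb had −0.73 (edgeR adjusted p = 0.341). In these cells too, both TLR9-/- libraries lay below both WT libraries. Cyba in B-cell precursors also stood apart, with log2 differences of −0.35 to −0.15 over 12 alternatives and no call. Monocyte markers in monocyte-committed progenitors summed to 6511 to 6535 CPM in TLR9-/- and 7454 to 8591 in WT libraries, and B-cell markers there to 106 to 127 and 152 to 193. In B-cell precursors, primary granule markers summed to 119 to 283 and 348 to 383 and erythroid markers to 301 to 321 and 416 to 645 CPM. In stem-like progenitors, neutrophil granule markers summed to 41.0 to 183 and 237 to 481 and monocyte markers to 91.4 to 93.5 and 114 to 148 CPM. The other marker sums of stem-like progenitors, of monocyte-committed progenitors and of B-cell precursors overlapped between the genotypes. The part of these markers was not tested.

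In neutrophils and classical monocytes the differences of Cybb and Cyba had intervals that include 0. For Cybb the log2 difference was 0.069 (95% interval −0.45 to 0.59) in immature, 0.16 (−0.40 to 0.72) in intermediate and −0.075 (−1.04 to 0.89) in mature neutrophils and −0.15 (−0.53 to 0.23) in classical monocytes. For Cyba it was 0.0038 (−0.60 to 0.60) in immature neutrophils and −0.13 (−0.48 to 0.22) in classical monocytes, where both TLR9-/- libraries lay below both WT libraries. In the macrophage gate Cyba had 0.53 (−0.19 to 1.25), with both TLR9-/- libraries above both WT libraries. The WT library numbered 2 had 12 cells and 13198 UMIs in that gate. The B-cell markers there summed to 0 to 77.2 CPM in TLR9-/- and 476 to 1288 in WT libraries. In classical monocytes the B-cell markers summed to 48.1 to 102 and 114 to 145. Their neutrophil granule markers summed to 145 to 159 and 227 to 364, and erythroid markers to 149 to 150 and 218 to 256. The other marker sums of both classes overlapped, and the part of these markers was not tested. Ncf1 had 0.11 in immature neutrophils, −0.31 in mature neutrophils and 0.10 in classical monocytes, all with intervals that include 0. In mature neutrophils both TLR9-/- libraries lay below both WT libraries for Ncf1, with −0.61 to −0.10 over 12 alternatives and no call.

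Rac2 was higher in both TLR9-/- libraries at each of the 3 neutrophil stages, with log2 differences of 0.33 (95% interval −0.26 to 0.92), 0.56 (−0.0089 to 1.14) and 0.63 (0.052 to 1.21), none of which passed the threshold (edgeR adjusted p = 0.993, 0.980 and 1.00). The genotypes did not overlap at any of these stages. Rac2 was also higher in both TLR9-/- libraries in stem-like progenitors, in classical monocytes and in the sum of all cells, with no call. Such separation of the libraries was thus not confined to neutrophils. In the remaining tested classes the genotypes overlapped for Rac2. Some marker sums, given next, also stood apart by genotype at the 3 neutrophil stages. The rest of the B-cell, granule, erythroid, primary granule and monocyte sums overlapped. Among those were the granule markers in immature neutrophils (117429 to 131257 CPM in TLR9-/- and 114433 to 127353 in WT libraries). In immature neutrophils the 10 B-cell markers summed to 88.5 to 112 CPM in TLR9-/- and 164 to 236 in WT libraries. In intermediate neutrophils the 8 erythroid markers summed to 196 to 223 and 654 to 2074, and the 5 granule markers to 105371 to 110904 and 101392 to 104656. In mature neutrophils the 5 granule markers summed to 42812 to 51313 and 56737 to 58371. Most of this sum was Retnlg, a gene of the gate for this class, with 38656 to 51241 CPM over the 4 libraries. The part of all these markers was not tested. Ncf4 was higher in both TLR9-/- libraries in immature neutrophils (0.29), classical monocytes (0.29), B-cell precursors (0.31) and mature B cells (0.32), again with no call. The classes share their mice, so that these are not separate observations.

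Whether genotype differences themselves differed between classes was tested by an interaction term in 3 pairs of classes. None of 15 tests of a member passed the threshold in edgeR, where 0.123% of genes did between mature neutrophils and classical monocytes, 0.0115% between classical monocytes and the macrophage gate, and 0.0704% between classical monocytes and mature B cells. The lowest unadjusted p was 0.017, for Ncf4 between classical monocytes and the macrophage gate, with an adjusted p of 1. In the lists of other oxidase parts, assembly regulators, removal of reactive oxygen and transcription factors, 0 genes were called between the genotypes by edgeR in any class or in all cells.

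**Figure D4:**
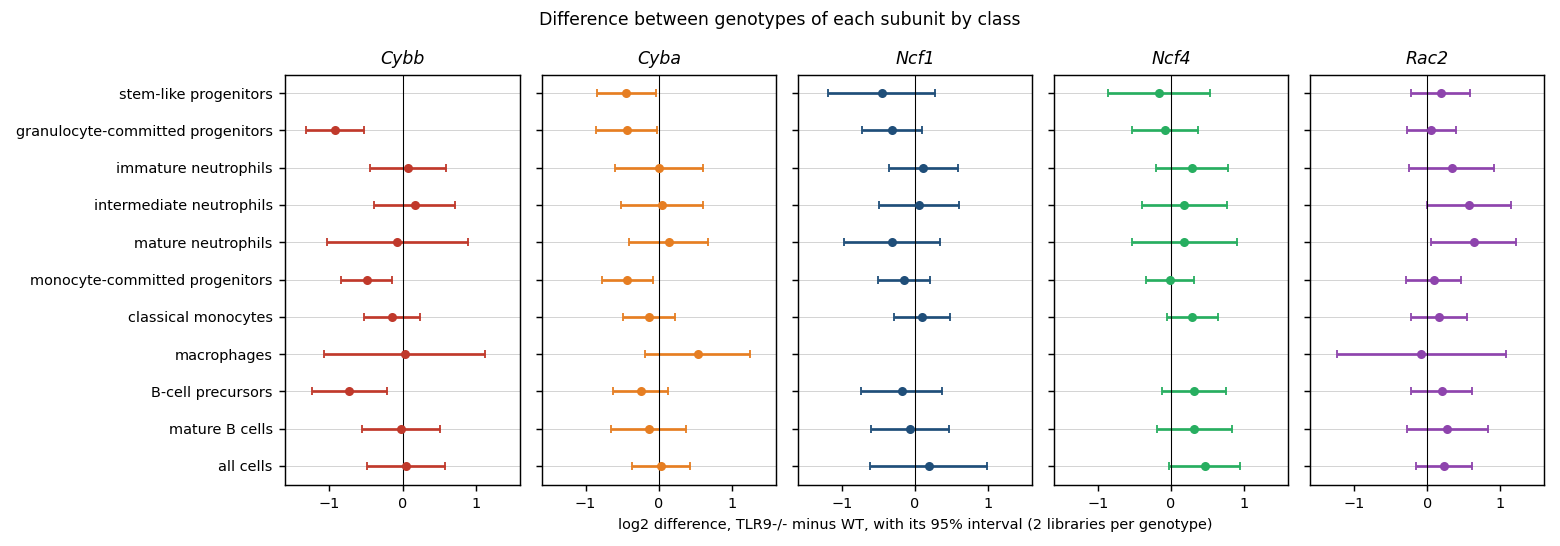
Log2 difference (TLR9-/- minus WT) of each subunit by class with its 95% interval (edgeR, 2 libraries per genotype); empty places had too few UMIs for a test. The point farthest from 0 is Cybb in granulocyte-committed progenitors (−0.93), and no point passed the threshold after adjustment.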

How the data were processed

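Per the labels and the methods of the study, marrow cells were layered on Ficoll and libraries were made on the 10x Chromium platform from the 5′ end. The authors aligned reads to mm10 and counted them with Cell Ranger, and Seurat 2.3.4 is named among the tools. The deposited matrices hold whole UMI counts per gene and cell, before depth was equalised. Cells with under 200 or over 10000 genes were left out, as were cells with over 10% mitochondrial UMIs (the methods print 0.10%, read here as a fraction). Classes came from marker gates. UMIs were summed per library and class and tested with edgeR 4.0.16 (TMM, filterByExpr, quasi-likelihood test; adjusted p under 0.05), in classes with at least 10 cells in every library. DESeq2 1.42.0 was an alternative, as were other scaling, no count filter, stricter gates (2-fold), clusters (scanpy 1.11.5), doublets left out and each library left out. Scripts were tested on simulated data. Named genes were the 5 members, the 3 genes most like each and called genes of the lists; items withheld here are not reported. The members and lists were chosen with earlier results of these data known.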

Additional observations from a re-analysis of the deposited data

How the results depend on the processing

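The members called between genotypes over the classes numbered 0 of 47 tests, but 1 of 50 with no filter on low counts (0.7% of all genes), 1 of 47 in DESeq2 and 3 of 47 with the library number as a replicate block, which called 2.3% of all genes over the 10 classes against 0.323% without it (Cybb and Cyba in granulocyte-committed progenitors and Cybb in B-cell precursors), and 0 with each library left out in turn. Same-numbered libraries deviated together with r = 0.32 over all cells, 0.20 to 0.33 in 8 classes, 0.025 in mature neutrophils and −0.084 in macrophages; the labels do not say what the number marks. Members called from immature to intermediate neutrophils fell from 5 to 2 with no filter, 3 with no replicate block and 2 without scaling factors, and ranged from 4 to 5 with a library left out. From classical monocytes to macrophages they numbered 0 in DESeq2 and 1 to 2 with a library left out, against 2.

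The sign changed for 22 of 52 genotype results, none of them called, and for 4 of 35 stage results, of which 1 was called. In all cells, leaving out a library moved Cybb between −0.20 and 0.27, Cyba between −0.060 and 0.14 and Ncf1 between −0.15 and 0.65, and with the same class makeup Cybb was −0.087 and Cyba −0.14. From classical monocytes to macrophages, Cybb was 0.19 with DESeq2's size factors, 0.19 in DESeq2, 0.36 without scaling and −0.31 to 0.095 with a library left out. Ncf1 was 0.22, 0.16, 0.36 and −0.34 to 0.24. Without scaling, Cyba from immature to intermediate neutrophils was −0.047 and Rac2 from intermediate to mature neutrophils 0.11. The cause was not tested. Of 30 called stage results 6 lost their call somewhere and 25 of 35 kept sign and call throughout. Over all cells, 38 genes were called, against 605 with no filter, 851 in DESeq2, 1165 with the replicate block and 58 to 88 with a library left out. Of 25 genotype differences in the share of cells with a UMI, 8 moved by more than 1 SD at 500 UMIs and 16 without thinning. Nonclassical monocytes were not tested, since a library had fewer than 10 cells. With stricter gates or clusters, macrophages gave no value, and clusters gave only 3 stage comparisons. Macrophages, with 12 to 29 cells per library, set the lowest precision, and intervals cover only the spread between 2 or 4 libraries.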

Other observations

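Plasmacytoid dendritic cells and basophils overlapped in the levels of 4 of the 5 subunits and differed in Cybb. Plasmacytoid dendritic cells had 575 ± 54.2 CPM of Cybb (SD, n = 4 libraries), 1057 ± 104 of Cyba, 160 ± 22.2 of Ncf1, 50.7 ± 15.7 of Ncf4 and 1222 ± 193 of Rac2. Basophils had 11.99 ± 10.1 CPM of Cybb, 1002 ± 74.1 of Cyba, 165 ± 53.4 of Ncf1, 43.8 ± 10.2 of Ncf4 and 1041 ± 194 of Rac2. Erythroid cells had 9.06 ± 2.72 of Cybb. The Cybb range of basophils overlapped that of erythroid cells. These values were not tested, and the pair was not among the planned comparisons. The share of all genes that overlapped between these classes was not counted, so that the overlap is no measure of likeness.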
